A study of Mus musculus with 23 samples.

Results

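The 38 genes described here encode the enzymes and regulators that hold peroxides, superoxide and oxidised protein thiols in check. They were picked by gene symbol from a table of 28861 mouse genes, where 38 of 38 symbols had a row, and 38 of 38 also passed the filter on low counts that left 22873 genes for testing. Testis RNA was sequenced from 23 male mice of 3 inbred strains, each on 1 of 2 diets that both contained fiber. The groups were NZO/HlLtJ on 44% fat (4 libraries) and 10% fat (4), CAST/EiJ on 44% fat (4) and 10% fat (3), and C57BL/6J on 44% fat (4) and 10% fat (4). Per the labels all mice were of genotype WT with no other treatment, the 44% fat diet was also rich in sugar, feeding began at 6 weeks of age and tissue was taken at 16 weeks. NZO/HlLtJ mice become obese and diabetic, CAST/EiJ descends from wild-caught mice, and C57BL/6J is the strain of the mouse reference genome. Each strain is 1 inbred genome, so a strain difference describes these strains and no wider population. The labels list each library as a separate sample and name no shared animal, and p values measure the spread between these samples.

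Thiol redox control runs on NADPH. Thioredoxin reductases and glutathione reductase use NADPH to regenerate reduced thioredoxin and glutathione, which in turn feed peroxiredoxins and glutathione peroxidases, the enzymes that break down hydrogen peroxide and lipid peroxides. Superoxide dismutases supply part of that hydrogen peroxide, catalase removes it without a thiol, and glutathione S-transferases attach glutathione to reactive lipid products. The transcription factor NRF2 (Nfe2l2), held back by KEAP1, raises many of these genes through antioxidant response elements. In the testis several members have forms made mainly in spermatids: GPX4 becomes a structural protein of the sperm midpiece, Txnrd3 takes part in disulfide formation in spermatids, and Txndc2 and Txndc8 are thioredoxins of spermatids.

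Values are estimated counts scaled to 1e+06 counts with TMM factors (CPM). Counts per library, in units of 1e+06, ran from 31.9 to 43.4 in NZO/HlLtJ, from 33.0 to 78.7 in CAST/EiJ and from 21.9 to 38.4 in C57BL/6J, and the 38 genes took 0.463% to 0.517% of the counts of a library. Markers matched the label testis: the summed level of 11 elongating spermatid genes was 11640 to 14900 CPM in NZO/HlLtJ, 15630 to 17360 CPM in CAST/EiJ and 14490 to 16210 CPM in C57BL/6J, with none at 0. Leydig cell markers (9 of 9 in the table) summed to 1133 to 1637 CPM in NZO/HlLtJ, 533.3 to 721.0 CPM in CAST/EiJ and 573 to 838 CPM in C57BL/6J. Spermatogonial markers (10 of 10) summed to 202 to 253 CPM in NZO/HlLtJ, 167 to 182 CPM in CAST/EiJ and 133 to 146 CPM in C57BL/6J, and peritubular myoid markers (7 of 7) to 381 to 408 CPM in NZO/HlLtJ, 213 to 246 CPM in CAST/EiJ and 373 to 409 CPM in C57BL/6J. Of 12 epididymal markers 4 had a row, and their sum was 99.2 CPM in CAST/EiJ 44% fat replicate 2, 13.3 CPM in C57BL/6J 10% fat replicate 2 and 1.52 CPM in C57BL/6J 10% fat replicate 4, against 0.0290 to 0.330 CPM in the other 20 libraries. Crisp1 made up nearly all of it, and Cst11 was at 0 in CAST/EiJ 44% fat replicate 2. NZO/HlLtJ 10% fat replicate 4 and 44% fat replicate 3 had the lowest elongating spermatid sums, 11640 and 12030 CPM. In whole tissue, fewer cells of a type and less RNA per cell cannot be told apart.

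Per kilobase of exon the levels of the 38 genes spanned 3 orders of magnitude. The most abundant was Gstm5, a mu-class glutathione S-transferase, at a mean of 965 CPM per kb over all libraries. It was followed by Gpx4, the phospholipid hydroperoxide peroxidase, at 460 CPM per kb, Txndc2 at 277, Gstm1 at 256, Txnrd3 at 213 and Txndc8 at 92.4 CPM per kb. The genes named above for their part in spermatids thus held 4 of the 6 highest places. The ubiquitous counterparts lay far lower on the same scale: cytosolic thioredoxin Txn1 at 11.98, cytosolic thioredoxin reductase Txnrd1 at 5.24, mitochondrial Txnrd2 at 0.960 and the cytosolic peroxidase Gpx1 at 13.6 CPM per kb. The length used joins all annotated exons of a gene, whether or not testis uses them, 7086 bases for Txnrd1 and 684 for Txndc8. The size of these gaps thus depends in part on the annotation. Gpx7, a peroxidase of the endoplasmic reticulum, was lowest at 0.684 CPM per kb and was the only one of the 38 genes with a mean under 1 CPM. Neighbours in this order were often closer than the strains of 1 gene: Keap1, Txn2 and Txn1 averaged 12.4, 12.3 and 11.98 CPM per kb over all libraries, while Txn1 averaged 16.7 ± 3.54 CPM per kb in NZO/HlLtJ, 9.84 ± 0.690 in CAST/EiJ and 9.15 ± 0.889 in C57BL/6J (SD, n = 8, 7 and 8).

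**Figure D1:**
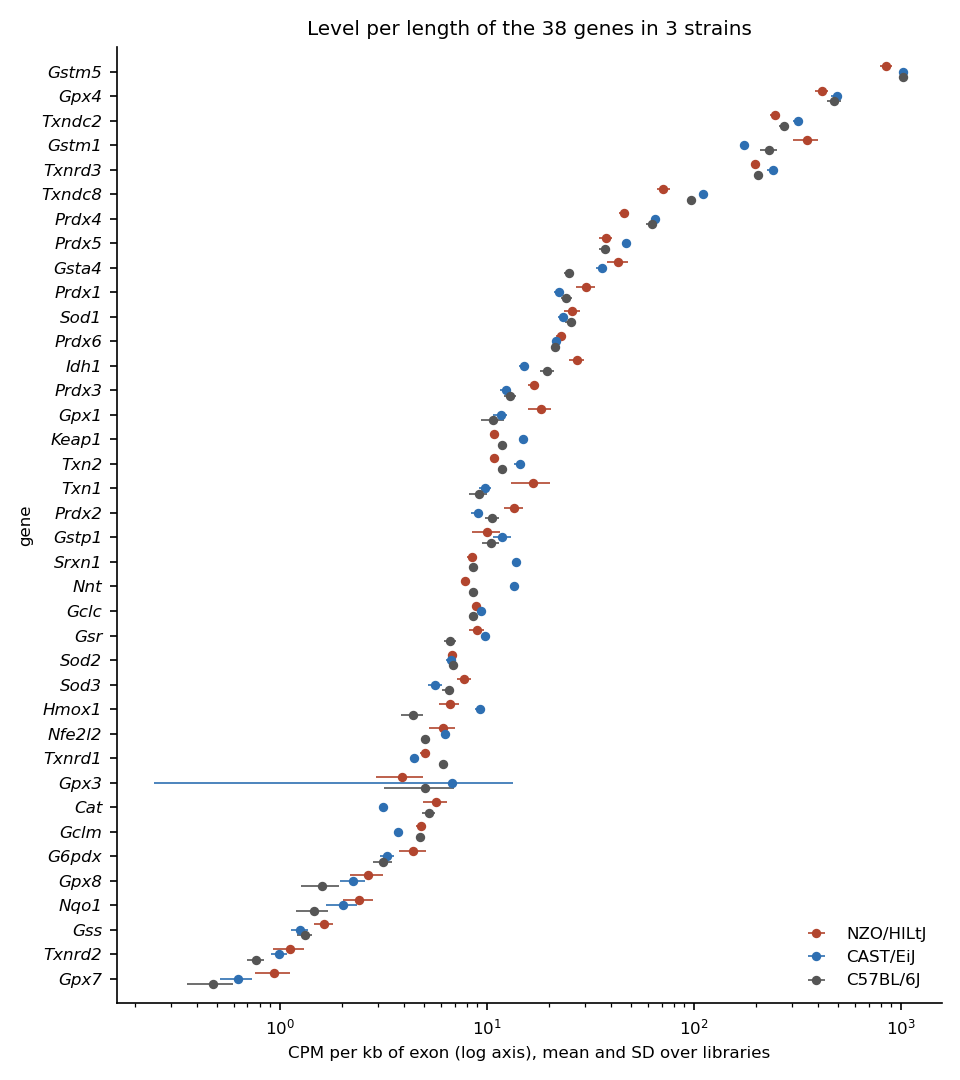
Mean level of each of the 38 genes per kilobase of exon on a log axis, with the SD over libraries, for NZO/HlLtJ (n = 8), CAST/EiJ (n = 7) and C57BL/6J (n = 8), with diets pooled. Gstm5 stands highest and Gpx7 lowest, and the bar of Gpx3 in CAST/EiJ is wide, with 1 of its 7 libraries at 39.0 CPM.

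Strain was the first question, with both diets averaged, and NZO/HlLtJ was set against C57BL/6J. Cytosolic thioredoxin, the glutathione peroxidases Gpx1 and Gpx8, the transferases Gsta4 and Gstm1, and the NADPH-forming enzymes G6pdx and Idh1 were higher in NZO/HlLtJ. The spermatid thioredoxin Txndc8, the peroxiredoxin Prdx4, Txnrd1, Gpx4 and Gstm5 were lower. In all, 28 of 38 genes passed edgeR's quasi-likelihood test at an adjusted p under 0.05, 19 higher and 9 lower. The test called 59.1% of all genes, 30.4% higher and 28.7% lower, so the count is read against a large background. The median absolute log2 difference was 0.30 over the 38 genes and 0.27 over all genes. With library totals alone in place of TMM factors the split was 22 higher and 5 lower. A fold of at least 1.5 was reached by 8 of the called genes, all higher, against 21% of all genes. Libraries of the strains did not overlap for 14 genes that were higher and 4 that were lower in NZO/HlLtJ (47.4%), against 26.3% of all genes, 13.3% higher and 12.9% lower.

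In the thioredoxin system 2 of 7 genes were higher in NZO/HlLtJ and 4 lower. Txn1, the cytosolic thioredoxin that reduces protein disulfides, ran from 13.9 to 25.3 CPM (median 16.8) in NZO/HlLtJ libraries, against 8.39 to 10.9 CPM (median 9.67) in C57BL/6J libraries. The ranges lay apart, with the highest value in NZO/HlLtJ 10% fat replicate 4, and the log2 fold change was 0.87 (SE 0.0903, adjusted p = 2.82e-09). Txndc8 ran from 44.3 to 55.5 CPM (median 48.5) in NZO/HlLtJ, against 62.0 to 69.5 CPM (median 66.3) in C57BL/6J. Every NZO/HlLtJ library was below every C57BL/6J library, at a log2 fold change of -0.44 (SE 0.0379, adjusted p = 7.14e-11). Txnrd1, which keeps cytosolic thioredoxin reduced, ran from 33.3 to 39.4 CPM (median 34.9) in NZO/HlLtJ, against 40.6 to 46.6 CPM (median 43.4) in C57BL/6J, again without overlap, at -0.28 (SE 0.0367, adjusted p = 1.68e-07). The mitochondrial pair differed in direction: its reductase Txnrd2 was higher, at a log2 fold change of 0.54 (SE 0.0956, adjusted p = 1.79e-05), and thioredoxin Txn2 lower at -0.13 (SE 0.0377, adjusted p = 0.00454). Txn2 lost its call with library totals alone and within 10% fat alone. Txndc2 was lower at -0.15 (SE 0.0352, adjusted p = 7.07e-04) and lost its call under the same 2 alternatives. Txnrd3 stood at -0.062 (SE 0.0295, adjusted p = 0.0716) and did not pass, though DESeq2, median-of-ratios scaling and limma called it lower. It was also called lower without C57BL/6J 10% fat replicate 4 or without NZO/HlLtJ 10% fat replicate 3.

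Among peroxiredoxins, Prdx1, Prdx2 and Prdx3 of the cytosol and mitochondria were higher in NZO/HlLtJ, at log2 fold changes of 0.31 (SE 0.0462, adjusted p = 1.68e-06), 0.35 (SE 0.0581, adjusted p = 7.46e-06) and 0.39 (SE 0.0482, adjusted p = 7.52e-08). Prdx4 went the other way. It ran from 92.0 to 109 CPM (median 96.3) in NZO/HlLtJ, against 125 to 147 CPM (median 129) in C57BL/6J. No libraries overlapped, and the log2 fold change was -0.44 (SE 0.0355, adjusted p = 2.00e-11). Srxn1, the sulfiredoxin that repairs overoxidised peroxiredoxins, averaged 24.0 ± 1.42 CPM in NZO/HlLtJ libraries, against 24.3 ± 0.939 CPM in C57BL/6J libraries (SD, n = 8 each), and did not pass, at -0.018 (SE 0.0427, adjusted p = 0.746). Prdx5 did not pass either, at 0.018 (SE 0.0383, adjusted p = 0.712).

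Of 5 glutathione peroxidases 3 were higher in NZO/HlLtJ and 1 lower. Gpx1 ran from 21.9 to 32.7 CPM (median 26.3) in NZO/HlLtJ, against 11.99 to 18.6 CPM (median 15.6) in C57BL/6J. The strains did not overlap, at a log2 fold change of 0.75 (SE 0.0752, adjusted p = 1.25e-09). Gpx8, of the endoplasmic reticulum, ran from 2.24 to 3.85 CPM (median 2.80) in NZO/HlLtJ, against 1.21 to 2.25 CPM (median 1.78) in C57BL/6J. The lowest NZO/HlLtJ library and the highest C57BL/6J library met, and the log2 fold change was 0.75 (SE 0.130, adjusted p = 1.45e-05). Gpx4, which averaged 717 ± 50 CPM in NZO/HlLtJ libraries, against 823 ± 62.5 CPM in C57BL/6J libraries, was lower at -0.20 (SE 0.0456, adjusted p = 4.49e-04). Gpx7 was higher at 0.99 (SE 0.174, adjusted p = 1.80e-05), at levels near 1 CPM, and Gpx3 did not pass. Of the superoxide dismutases and catalase, the extracellular Sod3 was higher at 0.25 (SE 0.0528, adjusted p = 1.96e-04), and Sod1, Sod2 and Cat did not pass. Of the glutathione-making enzymes, glutathione synthetase Gss and glutathione reductase Gsr were higher, at 0.31 (SE 0.0673, adjusted p = 2.76e-04) and 0.42 (SE 0.0438, adjusted p = 3.11e-09), whereas both subunits of glutamate-cysteine ligase, Gclc and Gclm, stood at 0.044 ± 0.0364 and 0.0005 ± 0.0396 (log2 fold change ± SE) and did not pass. Glucose-6-phosphate dehydrogenase G6pdx and cytosolic isocitrate dehydrogenase Idh1 were higher at 0.49 (SE 0.0799, adjusted p = 6.61e-06) and 0.48 (SE 0.0463, adjusted p = 7.32e-10). NRF2 itself (Nfe2l2) was higher at 0.28 (SE 0.0608, adjusted p = 2.60e-04), though not within 10% fat alone. Of its target enzymes, Nqo1, a quinone reductase, was higher at 0.72 (SE 0.124, adjusted p = 1.25e-05) and Hmox1, heme oxygenase, at 0.60 (SE 0.0701, adjusted p = 2.77e-08). The known targets Txnrd1 and Gclm did not share this: Txnrd1 was lower at -0.28, as given above, and Gclm did not pass. Keap1, the sensor that marks NRF2 for breakdown, was lower at -0.13 (SE 0.0324, adjusted p = 7.69e-04), a call that was lost with library totals alone and within 10% fat alone.

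The glutathione S-transferases split. Gsta4, which handles the lipid peroxidation product 4-hydroxynonenal, ran from 46.0 to 66.5 CPM (median 54.8) in NZO/HlLtJ, against 29.6 to 33.8 CPM (median 31.1) in C57BL/6J. All 8 NZO/HlLtJ libraries were above all 8 C57BL/6J libraries, at a log2 fold change of 0.79 (SE 0.0562, adjusted p = 1.02e-12). Gstm1 was higher at 0.60 (SE 0.0588, adjusted p = 7.95e-10). Gstm5, the most abundant of the 38 genes, ran from 962 to 1217 CPM (median 1085) in NZO/HlLtJ, against 1281 to 1331 CPM (median 1314) in C57BL/6J. All NZO/HlLtJ libraries were below all C57BL/6J libraries, at -0.27 (SE 0.0294, adjusted p = 6.06e-09). Beside these differences, 7 of 9 Leydig cell, 8 of 10 spermatogonial, 8 of 10 Sertoli cell and 5 of 8 macrophage markers were higher in NZO/HlLtJ, and 9 of 11 elongating spermatid markers and 9 of 10 round spermatid markers were lower, with the spermatogonial, Leydig cell and elongating spermatid sums as given above. Sertoli cell markers summed to 1001 to 1329 CPM in NZO/HlLtJ, against 872 to 959 CPM in C57BL/6J, and macrophage markers to 110.3 to 151 CPM in NZO/HlLtJ, against 91.5 to 111 CPM in C57BL/6J. No Sertoli cell or macrophage marker was at 0. The Leydig cell markers did not move as 1: Hsd3b1 ran from 281 to 354 CPM in NZO/HlLtJ, against 50.5 to 69.7 CPM in C57BL/6J. Cyp17a1 ran from 423 to 676 CPM, against 186 to 344 CPM. Cyp11a1 ran from 53.8 to 113 CPM in NZO/HlLtJ, against 77.7 to 126 CPM in C57BL/6J, and Star overlapped. The spermatogonial marker Id4 ran from 16.1 to 22.5 CPM in NZO/HlLtJ, against 21.45 to 23.8 CPM in C57BL/6J. The part of cell composition in the redox differences was not tested. Without the 2 NZO/HlLtJ libraries lowest in spermatid markers 28 of the 38 genes passed, again 19 higher and 9 lower.

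**Figure D2:**
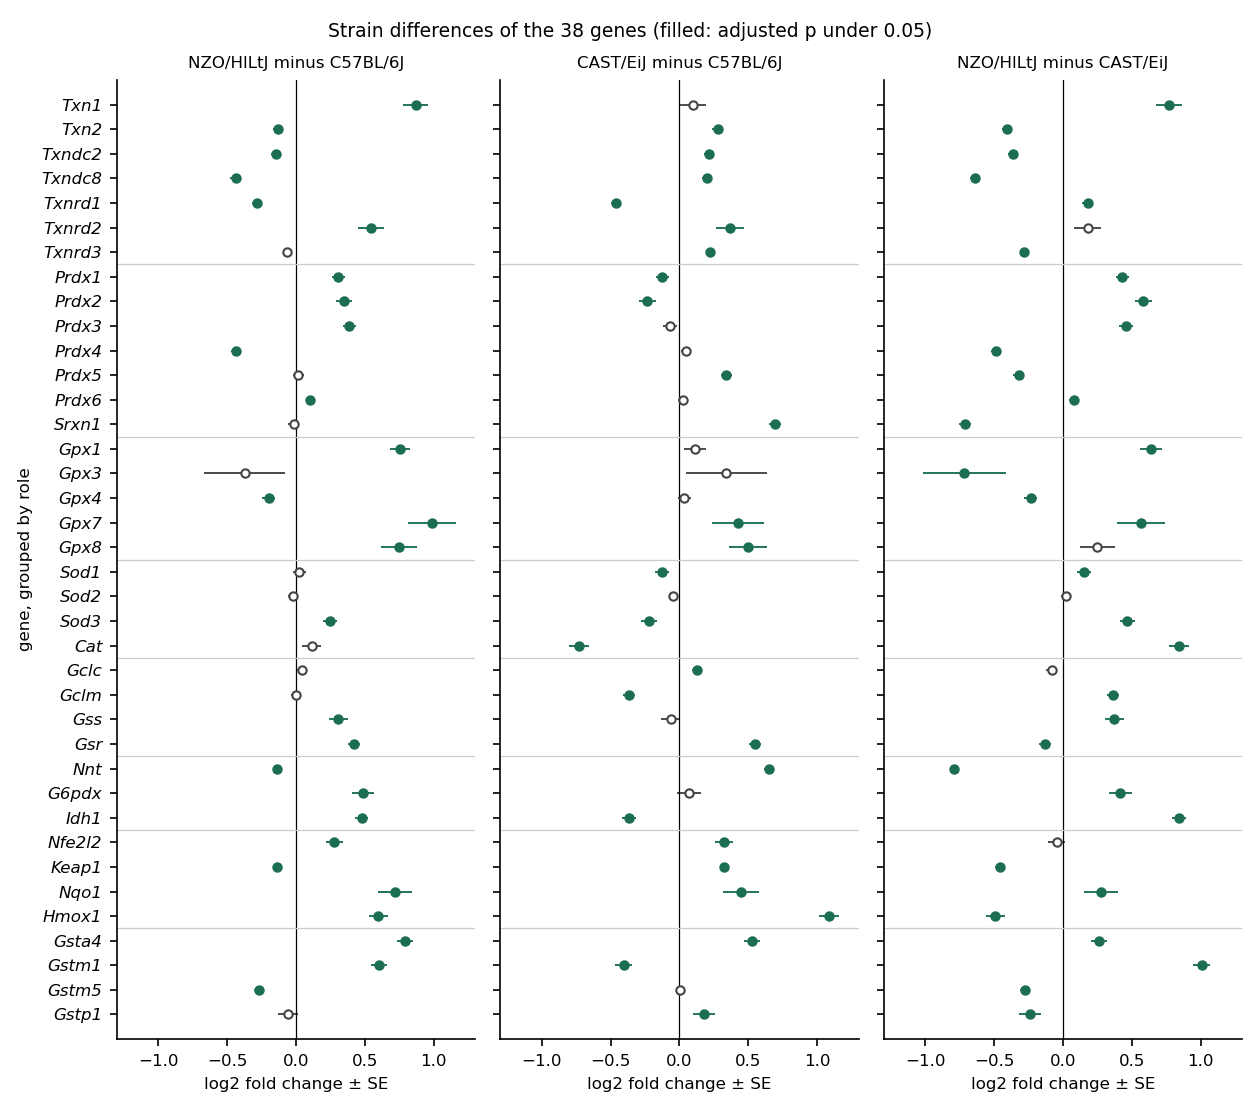
Log2 fold change with its SE for each of the 38 genes, grouped by role, in NZO/HlLtJ against C57BL/6J, CAST/EiJ against C57BL/6J and NZO/HlLtJ against CAST/EiJ, with diets averaged. Filled points passed edgeR's test (28, 27 and 33 genes), and Hmox1 at 1.09 in CAST/EiJ against C57BL/6J lies farthest from 0.

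Next, CAST/EiJ was set against C57BL/6J, whose libraries also served in the comparison above. In CAST/EiJ testis, heme oxygenase Hmox1, sulfiredoxin Srxn1, the mitochondrial transhydrogenase Nnt and glutathione reductase Gsr were higher, and catalase, Txnrd1, Gstm1 and Idh1 were lower. Of the 38 genes 27 passed, 18 higher and 9 lower, where 66.8% of all genes passed, 32.7% higher and 34.1% lower. The median absolute log2 difference was 0.25 over the 38 genes, below the 0.36 over all genes. A fold of at least 1.5 was reached by 4 of the called genes, 3 higher and 1 lower, against 33.7% of all genes. Libraries did not overlap for 12 higher and 5 lower genes (44.7%), against 39.1% of all genes, 18.8% higher and 20.3% lower.

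NRF2 and KEAP1 themselves were both higher in CAST/EiJ, Nfe2l2 at a log2 fold change of 0.32 (SE 0.0631, adjusted p = 5.49e-05) and Keap1 at 0.33 (SE 0.0334, adjusted p = 1.13e-09). Hmox1, which breaks down heme and is a standard NRF2 target, ran from 14.7 to 17.4 CPM (median 16.8) in CAST/EiJ libraries, against 6.02 to 9.17 CPM (median 7.53) in C57BL/6J libraries. The lowest CAST/EiJ library was well above the highest C57BL/6J library, and the log2 fold change of 1.09 (SE 0.0714, adjusted p = 7.55e-14) was the largest of the 38 genes in this comparison. Nqo1 was higher at 0.45 (SE 0.130, adjusted p = 0.00378), though not within 10% fat alone. Srxn1 ran from 36.4 to 41.5 CPM (median 38.9) in CAST/EiJ, against 23.1 to 25.9 CPM (median 24.2) in C57BL/6J, with a wide gap between the strains and a log2 fold change of 0.69 (SE 0.0435, adjusted p = 2.83e-14). Gsr, which returns oxidised glutathione to its reduced form, ran from 24.7 to 28.4 CPM (median 27.2) in CAST/EiJ, against 16.5 to 20.2 CPM (median 18.2) in C57BL/6J. Its libraries did not overlap either, at 0.55 (SE 0.0453, adjusted p = 1.22e-11).

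Gclm and Txnrd1, also known NRF2 targets, were lower in CAST/EiJ, as were Cat, Idh1 and Gstm1. Gclm, the modifier subunit of glutamate-cysteine ligase, ran from 22.1 to 24.8 CPM (median 23.1) in CAST/EiJ, against 27.8 to 31.9 CPM (median 30.2) in C57BL/6J. Every CAST/EiJ library was lower, at -0.36 (SE 0.0419, adjusted p = 1.04e-08), whereas the catalytic subunit Gclc was higher at 0.13 (SE 0.0377, adjusted p = 0.00453), a call that was lost within each diet alone. Txnrd1 ran from 30.5 to 32.5 CPM (median 32.0) in CAST/EiJ, against 40.6 to 46.6 CPM (median 43.4) in C57BL/6J. The ranges were apart, at -0.46 (SE 0.0387, adjusted p = 1.68e-11). Cat, the peroxisomal catalase, ran from 7.73 to 8.60 CPM (median 8.25) in CAST/EiJ, against 12 to 14.9 CPM (median 13.8) in C57BL/6J. No library crossed between strains, and the log2 fold change was -0.73 (SE 0.0728, adjusted p = 6.17e-10). Idh1, a cytosolic source of NADPH, ran from 38.8 to 45.7 CPM (median 41.5) in CAST/EiJ, against 48.6 to 61.1 CPM (median 54.6) in C57BL/6J, also apart, at -0.37 (SE 0.0492, adjusted p = 1.78e-07). Gstm1 ran from 245 to 269 CPM (median 258) in CAST/EiJ, against 286 to 383 CPM (median 340.4) in C57BL/6J. The strains did not overlap here either, at -0.40 (SE 0.0615, adjusted p = 1.54e-06). The sum of Gstm1 with related genes, given further on, did not pass. Gsta4 was higher at 0.53 (SE 0.0585, adjusted p = 4.82e-09).

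The remaining thioredoxin genes were mostly higher in CAST/EiJ: Txn2 at 0.28 (SE 0.0389, adjusted p = 3.98e-07), Txndc2 at 0.22 (SE 0.0366, adjusted p = 6.58e-06), Txndc8 at 0.20 (SE 0.0389, adjusted p = 5.15e-05), Txnrd2 at 0.36 (SE 0.100, adjusted p = 0.00220) and Txnrd3 at 0.22 (SE 0.0306, adjusted p = 2.92e-07). Prdx5, a peroxiredoxin of mitochondria, peroxisomes and cytosol, was higher at 0.34 (SE 0.0396, adjusted p = 1.47e-08), and Prdx1 and Prdx2 were lower at -0.12 (SE 0.0485, adjusted p = 0.0273) and -0.23 (SE 0.0616, adjusted p = 0.00160). Gpx7 and Gpx8 were higher at 0.42 (SE 0.187, adjusted p = 0.0480) and 0.50 (SE 0.137, adjusted p = 0.00220). Within 10% fat alone, Txnrd2, Prdx1, Gpx7, Gpx8 and Sod1 did not pass, and within 44% fat alone, Prdx1 and Gpx7 did not. Sod1 and Sod3 were lower at -0.13 (SE 0.0490, adjusted p = 0.0232) and -0.22 (SE 0.0559, adjusted p = 0.00109). The call of Prdx1 was lost without CAST/EiJ 44% fat replicate 4, CAST/EiJ 10% fat replicate 1 or C57BL/6J 10% fat replicate 1 (adjusted p up to 0.0786). That of Sod1 was lost without CAST/EiJ 44% fat replicate 4, CAST/EiJ 10% fat replicate 3, or C57BL/6J 10% fat replicate 1 or 2 (up to 0.0599). The calls of Gpx7 and Gstp1 were lost without any 1 of 15 and 9 of the 23 libraries. The 11 genes that did not pass were Txn1, Prdx3, Prdx4, Prdx6, Gpx1, Gpx3, Gpx4, Sod2, Gss, G6pdx and Gstm5. CAST/EiJ libraries also stood apart in peritubular myoid markers, of which 7 of 7 were lower, and the part of cell composition was not tested. Reads that differ from the GRCm38 sequence, which is that of C57BL/6J, may be lost from the counts of CAST/EiJ and NZO/HlLtJ. How the counting treated them is not given here, and their part was not tested.

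**Figure D3:**
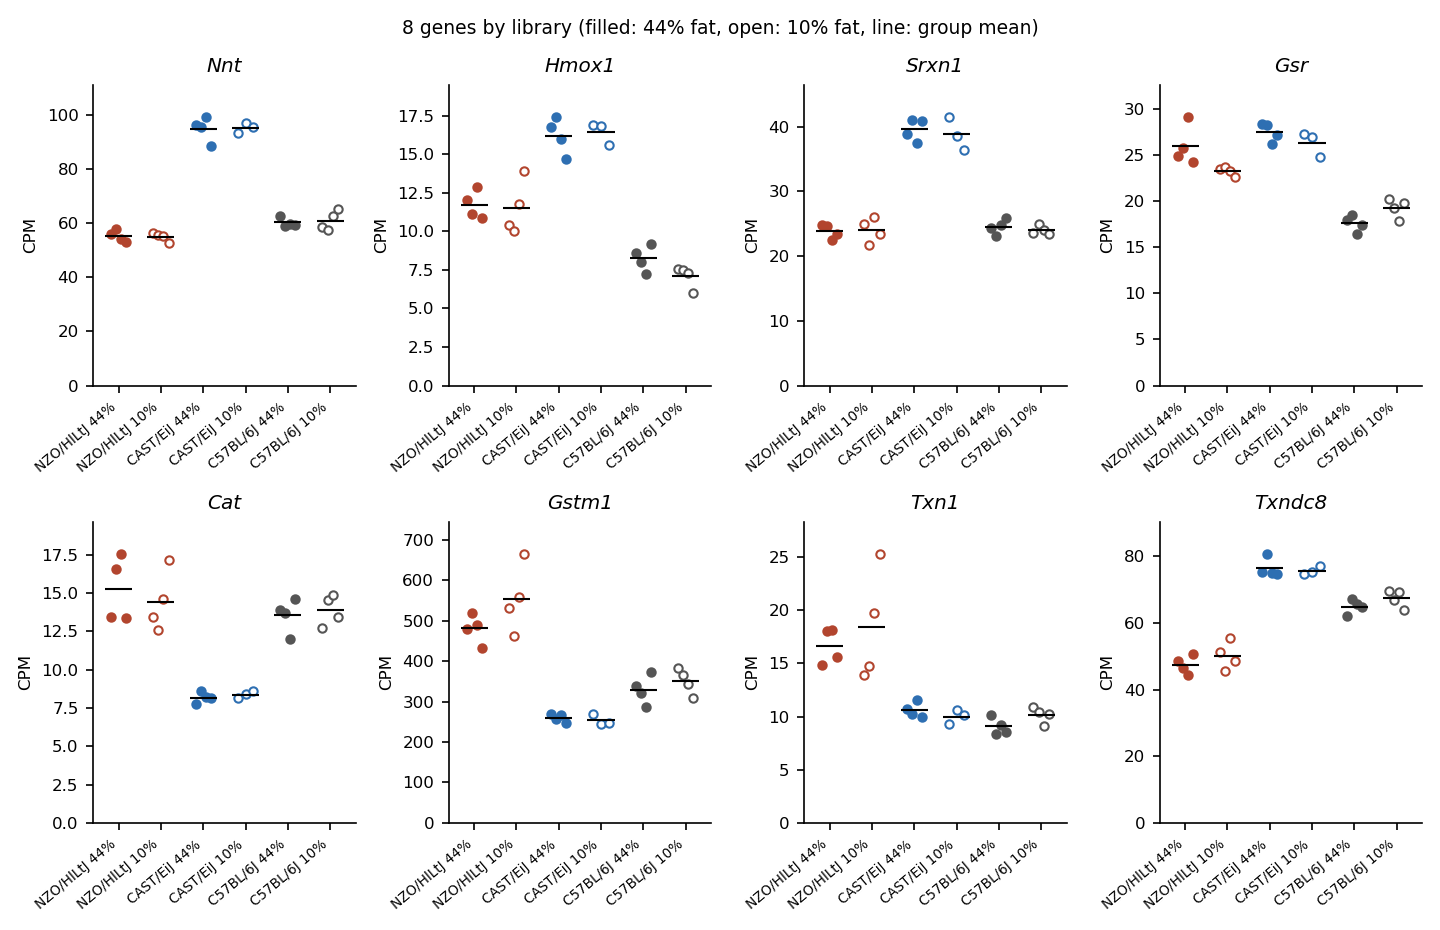
CPM of 8 genes in each of the 23 libraries, by strain and diet, with a line at each group mean and each axis starting at 0. Nnt, Hmox1, Srxn1 and Txndc8 are highest in CAST/EiJ, Gstm1 and Txn1 are highest in NZO/HlLtJ, Cat is lowest in CAST/EiJ, and the 2 diets of a strain overlap for all 8 genes except Gsr in NZO/HlLtJ.

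Last, NZO/HlLtJ was set against CAST/EiJ, with the same libraries as in the other strain comparisons. Gstm1, Cat, Idh1 and Txn1 were higher in NZO/HlLtJ, and Nnt, Srxn1 and Txndc8 lower. Of the 38 genes 33 passed, 18 higher and 15 lower, where 72.1% of all genes passed, 39.6% higher and 32.5% lower. With library totals alone the split was 21 higher and 12 lower, with Gsr, Gstp1 and Gpx3 no longer called and Txnrd2, Gpx8 and Sod2 called higher. The median absolute log2 difference was 0.39 over the 38 genes and 0.42 over all genes. A fold of at least 1.5 was reached by 9 of the called genes, 5 higher and 4 lower, against 36.4% of all genes. Libraries did not overlap for 12 higher and 11 lower genes (60.5%), against 43.9% of all genes, 23.1% higher and 20.8% lower. Gstm1 was 433 to 665 CPM in NZO/HlLtJ and 245 to 269 CPM in CAST/EiJ, ranges far apart, at a log2 fold change of 1.01 (SE 0.0622, adjusted p = 1.71e-14). Cat ran from 12.6 to 17.6 CPM (median 14.0) in NZO/HlLtJ, against 7.73 to 8.60 CPM (median 8.25) in CAST/EiJ, and was higher at 0.84 (SE 0.0721, adjusted p = 2.22e-11). Idh1 ran from 66.6 to 84.9 CPM (median 75.7) in NZO/HlLtJ, against 38.8 to 45.7 CPM (median 41.5) in CAST/EiJ, at 0.84 (SE 0.0490, adjusted p = 4.07e-15). Neither gene had a library of 1 strain within the range of the other. Txn1 ran from 13.9 to 25.3 CPM (median 16.8) in NZO/HlLtJ, against 9.26 to 11.6 CPM (median 10.2) in CAST/EiJ, at 0.77 (SE 0.0934, adjusted p = 2.58e-08), and Srxn1 from 21.8 to 26.1 CPM (median 24.1) in NZO/HlLtJ, against 36.4 to 41.5 CPM (median 38.9) in CAST/EiJ, at -0.71 (SE 0.0432, adjusted p = 1.28e-14). Txndc8 ran from 44.3 to 55.5 CPM (median 48.5) in NZO/HlLtJ, against 74.6 to 80.7 CPM (median 75.3) in CAST/EiJ, at -0.64 (SE 0.0391, adjusted p = 1.37e-14). All NZO/HlLtJ libraries were above all CAST/EiJ libraries for Txn1 and below them for Srxn1 and Txndc8. By role, 2 of 7 thioredoxin system genes were higher and 4 lower, 4 of 7 peroxiredoxin and sulfiredoxin genes higher and 3 lower, 3 of 4 superoxide dismutases and catalase higher and 0 lower, and 2 of 4 glutathione S-transferases higher and 2 lower. Beside them, 10 of 11 elongating spermatid markers were lower in NZO/HlLtJ, and 7 of 7 peritubular myoid markers and 6 of 9 Leydig cell markers higher, with their part in the result not tested. Of the other Leydig cell markers, Cyp11a1 ran from 53.8 to 113 CPM in NZO/HlLtJ, against 112 to 181 CPM in CAST/EiJ. Fdx1 ran from 15.9 to 22.5 CPM in NZO/HlLtJ, against 19.9 to 26.6 CPM in CAST/EiJ, and Star overlapped.

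Gpx3, the secreted plasma peroxidase, also passed as lower in NZO/HlLtJ, at -0.71 (SE 0.298, adjusted p = 0.0339), but 1 library set its size. It was 5.89, 7.64, 8.82 and 10.3 CPM in NZO/HlLtJ on 44% fat and 5.56, 5.21, 5.77 and 7.66 CPM on 10% fat, against 9.50, 39.0, 6.77 and 4.41 CPM in CAST/EiJ on 44% fat and 8.36, 9.99 and 8.46 CPM on 10% fat. The single high value belonged to CAST/EiJ 44% fat replicate 2, the library with the most epididymal transcripts, and the second highest of all 23 libraries, 15.5 CPM, to C57BL/6J 10% fat replicate 2, the library with the second most. C57BL/6J 10% fat replicate 4, with the next most, stood at 8.77 CPM, below C57BL/6J 10% fat replicate 1 at 12.3 CPM. The part of epididymal transcripts, which were mainly Crisp1, in the Gpx3 level was not tested. Without CAST/EiJ 44% fat replicate 2 the log2 fold change was -0.17 (adjusted p = 0.387). Over 33 alternatives the adjusted p of Gpx3 ran from 0.00549 to 0.387, and 12 of them ended the call, 6 by leaving out 1 library. The calls of Prdx6 and Nqo1 in this comparison were lost without any 1 of 10 and 15 of the 23 libraries.

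Averaged over libraries, the strain with the highest mean was NZO/HlLtJ for 19 of the 38 genes, CAST/EiJ for 17 and C57BL/6J for 2. The lowest mean was in NZO/HlLtJ for 12, in CAST/EiJ for 12 and in C57BL/6J for 14. These orders include differences that did not pass, and they were not counted over all genes. Sod2, the mitochondrial superoxide dismutase, passed in no strain comparison with TMM factors, though in NZO/HlLtJ against CAST/EiJ it did with library totals alone, and averaged 68.2 ± 2.91 CPM in NZO/HlLtJ, 67.3 ± 3.24 CPM in CAST/EiJ and 69.2 ± 2.71 CPM in C57BL/6J (SD, n = 8, 7 and 8).

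Nnt, the proton-driven transhydrogenase of the inner mitochondrial membrane, makes NADPH for mitochondrial thioredoxin and glutathione reduction, and C57BL/6J mice are known to carry a deletion of several of its exons. The gene lies at chr13:119335448-119408997 on the minus strand of GRCm38. In NZO/HlLtJ it was 56.1, 57.7, 54.0 and 53.0 CPM on 44% fat and 56.2, 55.5, 55.4 and 52.8 CPM on 10% fat. In CAST/EiJ it was 96.1, 95.7, 99.3 and 88.6 CPM on 44% fat and 93.5, 96.8 and 95.4 CPM on 10% fat. In C57BL/6J it was 62.7, 59.1, 59.8 and 59.4 CPM on 44% fat and 58.4, 57.3, 62.7 and 65.2 CPM on 10% fat. CAST/EiJ was above all other libraries, and NZO/HlLtJ and C57BL/6J met at 57.7 and 57.3 CPM. The log2 fold change was 0.65 (SE 0.0342, adjusted p = 4.19e-16) for CAST/EiJ against C57BL/6J and -0.79 (SE 0.0342, adjusted p = 4.49e-18) for NZO/HlLtJ against CAST/EiJ. For NZO/HlLtJ against C57BL/6J it was -0.14 (SE 0.0334, adjusted p = 9.29e-04), and -0.063 (adjusted p = 0.104) with library totals alone, the 1 of 33 alternatives that ended the call, with adjusted p values from 5.00e-06. These are counts per gene, which do not show which exons the reads came from, so the exon deletion was not analysed here. GRCm38 is the sequence of C57BL/6J, so reads from exons deleted there may be missing from the Nnt counts of NZO/HlLtJ and CAST/EiJ. Their part in the strain differences of Nnt was not tested.

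Close relatives of the members bear on some values. Prdx6, a peroxiredoxin that also acts as a phospholipase, averaged 110.0 ± 6.03 CPM in NZO/HlLtJ, 104 ± 5.41 CPM in CAST/EiJ and 102 ± 3.87 CPM in C57BL/6J. Its retrogene Prdx6b held more counts, at 349 ± 13.8 CPM in NZO/HlLtJ, 433 ± 7.05 CPM in CAST/EiJ and 439.5 ± 10.2 CPM in C57BL/6J. Prdx6 alone was higher in NZO/HlLtJ than in C57BL/6J by 0.10 (SE 0.0350, adjusted p = 0.0114), a call that was lost with DESeq2, median-of-ratios scaling, limma and within 10% fat alone, whereas the sum of both genes was lower, at -0.24 (SE 0.0232, adjusted p = 6.72e-10), so the fitted value changes sign when both are counted together. Gstm1 has mu-class relatives in the same gene cluster. Gstm2 averaged 102 ± 12.2 CPM in NZO/HlLtJ, 217 ± 14.3 CPM in CAST/EiJ and 159 ± 13.6 CPM in C57BL/6J, in the reverse strain order to Gstm1. Gstm7 averaged 79.6 ± 10.1 CPM in NZO/HlLtJ, 85.9 ± 3.74 CPM in CAST/EiJ and 37.8 ± 3.69 CPM in C57BL/6J. Summed over Gstm1, Gstm2, Gstm3, Gstm4, Gstm6 and Gstm7, the difference of CAST/EiJ from C57BL/6J was 0.038 (SE 0.0576, adjusted p = 0.581) and did not pass, and that of NZO/HlLtJ from C57BL/6J was 0.35 (SE 0.0554, adjusted p = 3.41e-06). Neither Prdx6b nor these mu-class relatives matched at 95% identity or more over at least 300 bases, so the sums cover distinct genes. With its 1 copy at that level, the pseudogene Gstm2-ps1, Gstm1 stayed lower in CAST/EiJ than in C57BL/6J, at -0.40 (SE 0.0615, adjusted p = 1.53e-06). Gstp1, the pi-class transferase, was higher in CAST/EiJ than in C57BL/6J by 0.18 (SE 0.0784, adjusted p = 0.0443), and by 0.30 (SE 0.0729, adjusted p = 7.30e-04) when summed with its near-identical neighbour Gstp2. Pseudogene copies of Prdx1, Prdx2, Sod1 and Gstm1 averaged under 0.5 CPM in every strain. Sod2 matched Rps6ka2 over 3110 bases at 98.3% identity. Rps6ka2 averaged 43.2 ± 5.53 CPM in NZO/HlLtJ, 39.6 ± 1.66 CPM in CAST/EiJ and 39.8 ± 2.50 CPM in C57BL/6J. The sum of Sod2 and Rps6ka2 passed edgeR's test in no strain comparison. Its adjusted p was 0.474 in NZO/HlLtJ against C57BL/6J, 0.457 in CAST/EiJ against C57BL/6J and 0.129 in NZO/HlLtJ against CAST/EiJ.

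**Figure D4:**
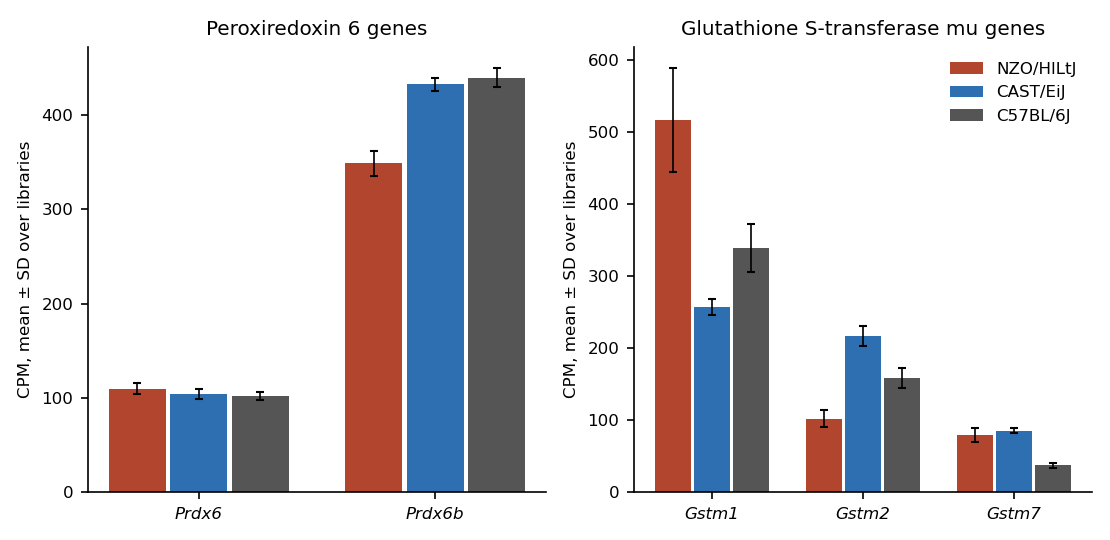
Mean CPM with SD over libraries of Prdx6 and its relative Prdx6b, and of the mu-class transferases Gstm1, Gstm2 and Gstm7, in NZO/HlLtJ (n = 8), CAST/EiJ (n = 7) and C57BL/6J (n = 8). Prdx6b is lowest in NZO/HlLtJ while Prdx6 is nearly level, and Gstm2 runs against Gstm1 across the strains.

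Other genes of the same pathways were taken from lists, whose counts of called genes are to be read against the shares of all genes: 30.4% higher and 28.7% lower in NZO/HlLtJ against C57BL/6J, 32.7% higher and 34.1% lower in CAST/EiJ against C57BL/6J, and 39.6% higher and 32.5% lower in NZO/HlLtJ against CAST/EiJ. Among 20 tested glutathione S-transferases outside the 38 genes, CAST/EiJ against C57BL/6J had 6 higher and 8 lower, at a median of -0.07. Gstz1, of the zeta class, was higher by 1.18 (adjusted p = 1.58e-21), and Gsta3, an alpha-class enzyme, lower at -2.34 (adjusted p = 5.19e-21). In NZO/HlLtJ against C57BL/6J the same list had 8 of 20 higher and 9 lower, at a median of -0.055. Scly, which frees selenium from selenocysteine, was higher by 1.29 (adjusted p = 1.21e-20) in NZO/HlLtJ and by 1.98 (adjusted p = 2.42e-25) in CAST/EiJ, each against C57BL/6J. The list of selenoprotein synthesis and supply had 5 of 10 higher and 3 lower, at a median of 0.14 in NZO/HlLtJ, and 6 of 10 higher and 2 lower, at a median of 0.23 in CAST/EiJ. Other NADPH-forming enzymes had 11 of 16 higher and 3 lower, at a median of 0.31 in NZO/HlLtJ, with mitochondrial Idh2 higher by 1.14 (adjusted p = 4.48e-14) and the malic enzyme Me3 lower at -0.98 (adjusted p = 1.23e-13). In CAST/EiJ they had 8 of 16 higher and 3 lower, at a median of 0.12, and Me3 was higher by 1.06 (adjusted p = 2.19e-15).

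The list of NRF2 partners and further targets shares Tkt, Pgd and Me1 with the NADPH-forming enzymes. It mixes targets with partners such as Bach2 and Cul3, so its counts give no direction of NRF2 activity. These partners and targets had 15 of 22 higher and 4 lower, at a median of 0.26 in NZO/HlLtJ. There the epoxide hydrolase Ephx1 was higher by 0.91 (adjusted p = 4.30e-12). In CAST/EiJ they had 8 of 22 higher and 6 lower, at a median of 0.019. There the ferritin heavy chain Fth1 was higher by 0.63 (adjusted p = 1.68e-10), and Bach2, a repressor that binds related elements, lower at -1.24 (adjusted p = 2.30e-12). Glutaredoxins and other thioredoxin-fold genes had 11 of 22 higher and 7 lower, at a median of 0.13 in NZO/HlLtJ, with Txnip, which binds and inhibits thioredoxin, higher by 1.22 (adjusted p = 4.28e-10). In CAST/EiJ they had 10 of 22 higher and 6 lower, at a median of 0.021, with the sperm-tail protein Nme8 higher by 1.01 (adjusted p = 1.87e-17). Genes of glutathione turnover and cystine uptake had 6 of 15 higher and 4 lower, at a median of 0.066 in NZO/HlLtJ, and 7 of 15 higher and 5 lower, at a median of 0.18 in CAST/EiJ. Methionine sulfoxide reductases had 1 of 4 higher and 1 lower, at a median of 0.18 in NZO/HlLtJ, and 3 of 4 higher and 0 lower, at a median of 0.27 in CAST/EiJ. The median over all genes tested was 0.0069 in NZO/HlLtJ and -0.0012 in CAST/EiJ, each against C57BL/6J. In NZO/HlLtJ against CAST/EiJ, where it was 0.061, the median was highest for NRF2 partners and targets (16 of 22 higher and 3 lower, at a median of 0.32) and lowest for methionine sulfoxide reductases (1 of 4 higher and 2 lower, at a median of -0.27). The other lists with at least 10 genes had 10 of 20 higher and 6 lower (glutathione S-transferases), 13 of 22 and 6 (thioredoxin-fold genes), 7 of 15 and 5 (glutathione turnover), 8 of 16 and 5 (NADPH-forming enzymes) and 3 of 10 and 5 (selenoprotein synthesis). Gpx6, the 1 further glutathione peroxidase tested, was higher in CAST/EiJ than in C57BL/6J at 0.31 (adjusted p = 3.92e-04). No gene of these lists passed edgeR's test in a diet comparison.

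The promoter windows were searched for the core of the antioxidant response element, TGACNNNGC, on both strands. RefSeq windows of GRCm38.p6, from 250 bases before to 50 bases after a start, were at hand for 31 of the 38 genes. The motif was in 9 of the 31 genes (29%), Txndc2, Txnrd1, Prdx1, Srxn1, Sod1, Gclm, G6pdx, Nfe2l2 and Gstm5, and in 3781 of 27025 genes overall (14%). The 5 stretches below are those of the highest gene, Gstm5, and of 4 genes of the thioredoxin, peroxiredoxin, glutathione and NADPH branches, shown because their strain differences point different ways. They lie before the start, are given 5′ to 3′ on the strand of the gene, and have the motif or its reverse complement in capitals.
Txnrd1: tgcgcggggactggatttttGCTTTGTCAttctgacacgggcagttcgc
Prdx1: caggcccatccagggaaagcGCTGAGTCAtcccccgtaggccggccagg
Gclm: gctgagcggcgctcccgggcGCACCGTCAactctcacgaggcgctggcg
G6pdx: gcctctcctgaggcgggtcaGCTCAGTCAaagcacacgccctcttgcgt
Gstm5: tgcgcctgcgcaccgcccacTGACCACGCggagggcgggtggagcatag
Their positions are chr10:82859094-82859142 (plus strand) for Txnrd1, chr4:116685446-116685494 (plus) for Prdx1, chr3:122245403-122245451 (plus) for Gclm, chrX:74428909-74428957 (minus) for G6pdx and chr3:107895792-107895840 (plus) for Gstm5. The match in Prdx1 overlaps a TGAGTCA, the AP-1 motif. In CAST/EiJ against C57BL/6J, Txnrd1 was lower at -0.46, Prdx1 lower at -0.12 and Gclm lower at -0.36 on the log2 scale, and G6pdx and Gstm5 did not pass. In NZO/HlLtJ against C57BL/6J, Txnrd1 was lower at -0.28, Prdx1 higher at 0.31, G6pdx higher at 0.49 and Gstm5 lower at -0.27, and Gclm did not pass. The motif is a description of the reference sequence, and its part in these differences was not tested.

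Diet was the second question: 44% against 10% fat within each strain. None of the 38 genes passed edgeR's test in any strain, with 4 of 38 at an unadjusted p under 0.05 in NZO/HlLtJ, 0 in CAST/EiJ and 2 in C57BL/6J. DESeq2 and limma also called 0 of 38 in each strain. Few genes of any kind passed: edgeR called 1 of 22873 in NZO/HlLtJ (0.00437%), 0 in CAST/EiJ (0%) and 2 in C57BL/6J (0.00874%). The median absolute log2 difference of the 38 genes was 0.075 in NZO/HlLtJ, 0.039 in CAST/EiJ and 0.056 in C57BL/6J, and that over all genes was 0.090 in NZO/HlLtJ, 0.082 in CAST/EiJ and 0.071 in C57BL/6J. Leaving aside Gpx3, the fold changes lay between -0.20 and 0.16 in NZO/HlLtJ (median SE 0.065), -0.20 and 0.17 in CAST/EiJ (median SE 0.072), and -0.27 and 0.21 in C57BL/6J (median SE 0.066). Values on 44% fat lay wholly above those on 10% fat for 1 gene in NZO/HlLtJ, where this held for 1.86% of all genes and the reverse for 1.71% (3.58% together). In CAST/EiJ they lay wholly below for 1 gene, where this held for 2.9% of all genes and the reverse for 2.39% (5.29% together). In C57BL/6J there was no such gene, against 2.09% of all genes.

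In NZO/HlLtJ, Gsr was the gene without overlap. It was 24.9, 25.8, 29.1 and 24.2 CPM on 44% fat and 23.5, 23.7, 23.3 and 22.6 CPM on 10% fat. All 4 libraries on 44% fat were higher, at a log2 fold change of 0.16 ± 0.0605 (SE, edgeR's adjusted p = 0.723), and 0.10 without 44% fat replicate 3. Gstm1 was 480.0, 520.1, 490.1 and 433 CPM on 44% fat and 530.3, 461, 559.6 and 665 CPM on 10% fat. The ranges overlapped, with the highest value in 10% fat replicate 4, at -0.20 (SE 0.0827, adjusted p = 0.723), and at -0.10 without that library. Gstm5 was 1086, 1073, 962 and 1084 CPM on 44% fat and 1114, 1116, 1217 and 1033 CPM on 10% fat. The ranges overlapped here too, at -0.091 (SE 0.0415, adjusted p = 0.723), and at -0.049 without 10% fat replicate 3 or -0.051 without 44% fat replicate 3. Sample ID numbers fall into 3 runs that no source calls batches, and NZO/HlLtJ libraries on 44% fat come from runs 1 and 2 and those on 10% fat from runs 1 and 3. With the run as a term in the fit, 0 of the 38 genes passed for diet in any strain.

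In CAST/EiJ, glutathione synthetase Gss was the gene without overlap. It was 6.67, 7.29, 6.65 and 7.26 CPM on 44% fat and 8.12, 8.43 and 7.49 CPM on 10% fat. All 4 libraries on 44% fat were below the 3 on 10% fat, but the log2 fold change of -0.20 (SE 0.104, adjusted p = 1) did not pass. Gpx3, with the values given above, stood at 0.74 (SE 0.432, adjusted p = 1), and at -0.34 (adjusted p = 0.920) without CAST/EiJ 44% fat replicate 2, where all alternatives gave adjusted p values from 0.886 to 1. Txnrd3 was 741, 652, 712 and 679.7 CPM on 44% fat and 648, 698 and 639.6 CPM on 10% fat. The ranges overlapped, at 0.074 (SE 0.0450, adjusted p = 1), and at 0.043 without 44% fat replicate 1 or 0.11 without 10% fat replicate 2.

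In C57BL/6J, Prdx5 was 76.6, 73.8, 74.7 and 80.0 CPM on 44% fat and 83.6, 85.8, 77.0 and 84.4 CPM on 10% fat. The libraries on 44% fat were lower apart from 1 that overlapped, at -0.12 (SE 0.0544, adjusted p = 1). Gsr was 17.9, 18.5, 16.5 and 17.4 CPM on 44% fat and 20.2, 19.2, 17.8 and 19.8 CPM on 10% fat. The ranges overlapped, at -0.13 (SE 0.0633, adjusted p = 1), opposite in sign to NZO/HlLtJ. Hmox1 was 8.60, 8.04, 7.26 and 9.17 CPM on 44% fat and 7.59, 7.47, 7.31 and 6.02 CPM on 10% fat. It overlapped as well, at 0.21 (SE 0.103, adjusted p = 1).

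**Figure D5:**
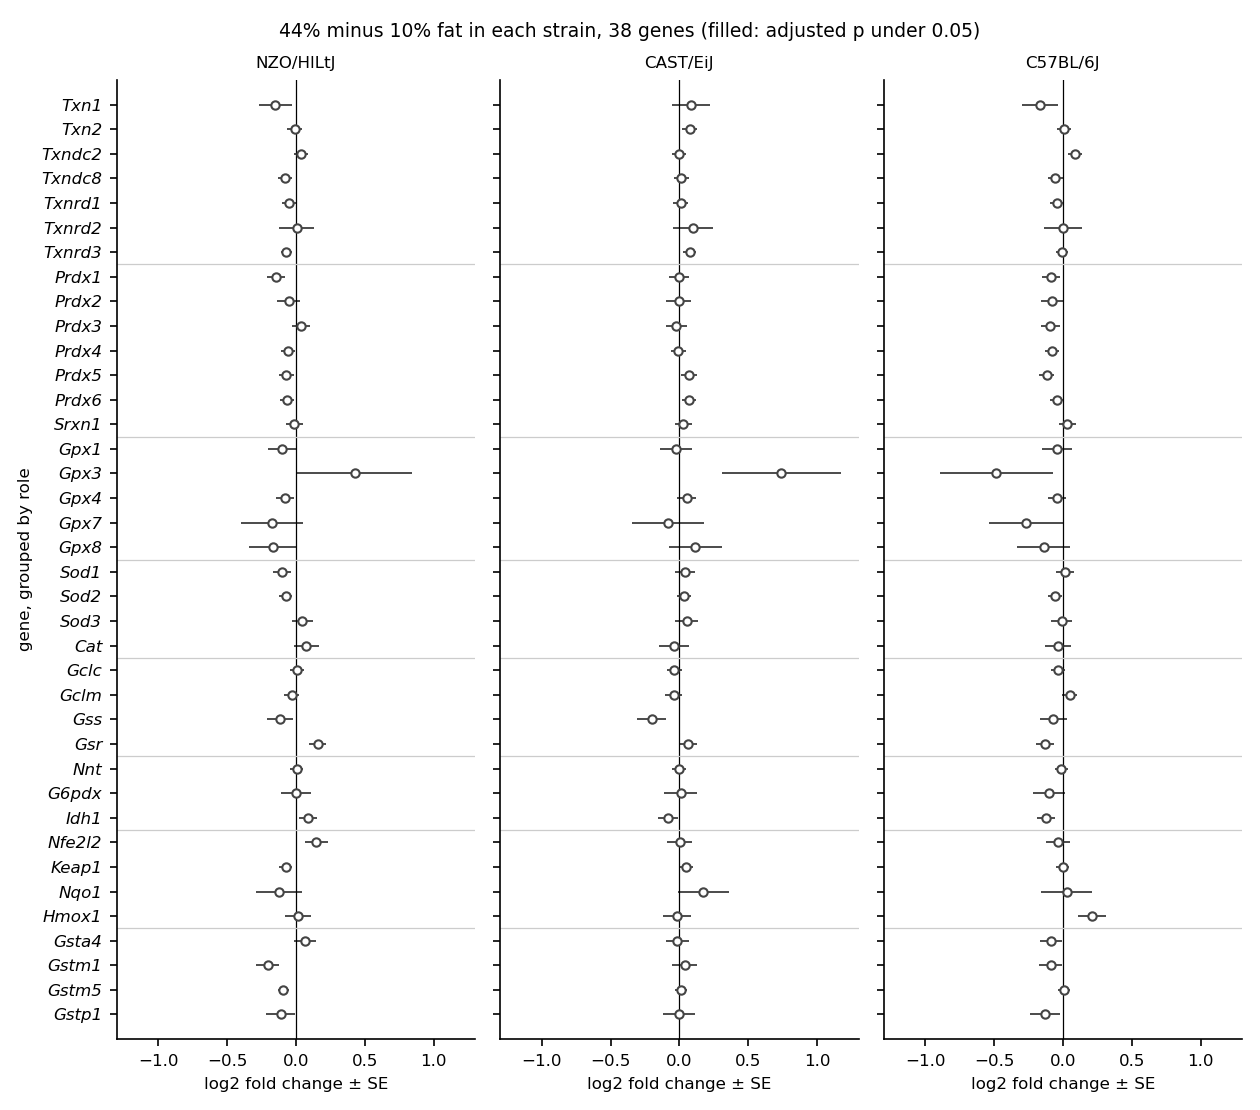
Log2 fold change of 44% over 10% fat with its SE for each of the 38 genes in NZO/HlLtJ, CAST/EiJ and C57BL/6J. No point is filled because no gene passed the test, and Gpx3 is the 1 gene that lies beyond 0.3 on the log2 scale in any strain.

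Averaged over strains, edgeR called 0 of 38 genes and 0 of 22873 genes (0%), with 1 of the 38 at an unadjusted p under 0.05, and DESeq2 called 6 genes, none of them among the 38. The smallest p values were those of Gss at -0.13 (SE 0.0567, adjusted p = 1), Prdx1 at -0.077 (SE 0.0389, adjusted p = 1) and Gstm1 at -0.084 (SE 0.0492, adjusted p = 1). The test of whether the diet effect differed between strains called 0 of 38 genes and 0 of all genes (0%) in edgeR, and 1 of the 38 had an unadjusted p under 0.05. DESeq2 called 8 genes, none of them among the 38. Gsr had the smallest p of the 38, 0.00906 (adjusted p = 0.943), with diet effects of 0.16 ± 0.0605 in NZO/HlLtJ, 0.065 ± 0.0651 in CAST/EiJ and -0.13 ± 0.0633 in C57BL/6J (log2 ± SE). Prdx5 and Idh1 followed, each with an adjusted p of 0.943 in edgeR. For Nnt the diet difference was 0.0064 ± 0.0471 in NZO/HlLtJ, -0.0044 ± 0.0497 in CAST/EiJ and -0.013 ± 0.0473 in C57BL/6J. The direction was shared by all 3 strains for 8 of the 38 genes, 1 above and 7 below 0, and none of these differences passed. Within a strain, 24 of the 38 differences lay below 0 in NZO/HlLtJ, 16 in CAST/EiJ and 29 in C57BL/6J. These directions were not counted over all genes.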

How the data were processed

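Polyadenylated testis RNA of 23 mice was made into libraries with the KAPA mRNA HyperPrep kit and sequenced as 100 base read pairs, per the labels' protocols. The deposited table holds estimated counts per gene that the authors made from the reads, on GRCm38 per the submitters' processing notes, and 22.6% of its values lie over 0.001 from a whole number. The authors also deposited log2 values after a variance-stabilising transformation per the file name, and the submitters' processing notes name DESeq2 without a version. No source used here gives the aligner, the counter, whether it used strand or how it treated variants between strains, so reads of a gene and its antisense partner cannot be told apart.

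Counts were rounded to whole numbers. Library totals were 21.9 to 78.7 M counts (1e+06; median 35.1 M), and no 2 replicates agreed within sampling noise. Genes passing edgeR's filterByExpr were scaled by TMM factors and fitted with edgeR 4.0.16 (R 4.3.3) by quasi-likelihood, with 1 mean for each of 6 groups over all 23 libraries. P values were adjusted by Benjamini-Hochberg over 22873 genes and called under 0.05. Strain contrasts average the diets and diet contrasts are 44% over 10% fat. DESeq2 1.42.0, limma 3.58.1 on the deposited log2 values and other scalings, filters and sample sets were alternatives. The code was tested on simulated data. Exon lengths came from GENCODE M21 and promoters from RefSeq.

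The members, lists and tests were chosen with earlier results of these data known. Library values are given for Nnt, for the 3 genes of smallest p per diet comparison and for the 4 called genes per direction with the largest strain difference and a mean of at least 1 CPM. Pathway genes are named by the largest called difference, at most 2 per direction and list.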

Additional observations from a re-analysis of the deposited data

Results flagged for a closer look

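Libraries far from the other 3 of their group of 4 were sought for each of the 38 genes by Dixon's test, which chance passes in about 1 of 20 groups, or 9.5 of the 190 gene and group pairs tested. It picked 12. In CAST/EiJ 44% fat replicate 2 there were 4, in the library with the most epididymal transcripts: Gpx3 at 39.0 CPM against 4.41 to 9.50 CPM in the others, Txndc8 at 80.7 CPM against 74.6 to 75.3 CPM, Txn2 at 55.2 CPM against 64.0 to 64.6 CPM, and Txnrd1 at 30.5 CPM against about 32.0 CPM. In NZO/HlLtJ 10% fat replicate 4, the library with the lowest elongating spermatid marker sum, Nfe2l2 stood at 25.4 CPM against 20.7 to 21.3 CPM and Txnrd2 at 6.52 CPM against 4.26 to 4.52 CPM. The other 6 were single genes. Gstm5 was low in NZO/HlLtJ 44% fat replicate 3 at 962 CPM, Prdx6 low in NZO/HlLtJ 44% fat replicate 4 at 104 CPM, and Sod2 high in NZO/HlLtJ 44% fat replicate 2 at 69.6 CPM. Gpx1 was low in CAST/EiJ 44% fat replicate 4 at 14.4 CPM. Txnrd2 was high in C57BL/6J 44% fat replicate 1 at 3.89 CPM, and Prdx1 low in C57BL/6J 10% fat replicate 4 at 68.0 CPM. No diet effect passed the test of a difference between strains.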

How the results depend on the processing

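No paired analysis was possible because the labels give no replicate numbers, and the numbers used here only name libraries in the order they were listed. Of the strain calls, 22 of 28 (NZO/HlLtJ against C57BL/6J), 19 of 27 (CAST/EiJ against C57BL/6J) and 24 of 33 (NZO/HlLtJ against CAST/EiJ) held under every alternative run, and no call changed sign. Asking also for a fold of 1.5 left 8, 4 and 9 calls in the same order. Leaving out 1 library at a time gave 28 to 29, 24 to 27 and 30 to 34 calls. With the run of sample ID numbers as a term, 28, 25 and 33 genes were called, with Gpx7 and Gstp1 lost in CAST/EiJ against C57BL/6J, and Gpx3 lost and Gclc gained in NZO/HlLtJ against CAST/EiJ. Library totals alone shifted the median of all genes by 0.106 in NZO/HlLtJ against CAST/EiJ. Leaving out the 2 libraries with the most epididymal transcripts, an alternative chosen after seeing the data, gave 28, 25 and 31 calls, and turned the diet effect on Gpx3 in CAST/EiJ to -0.3415. Leaving out 1 library at a time gave it a range of -0.3408 to 1.035. The diet effect on Nnt, near 0, crossed 0 with library choice, from -0.0159 to 0.0256 in NZO/HlLtJ, -0.0263 to 0.0269 in CAST/EiJ, -0.0393 to 0.0195 in C57BL/6J and -0.0127 to 0.0072 averaged. It was -0.0021 in NZO/HlLtJ without the 2 NZO/HlLtJ libraries lowest in spermatid markers, also chosen after seeing the data, and 0.0023 in CAST/EiJ with only that strain's libraries. With limma on the deposited log2 values the diet effect was -0.10 for Gss in CAST/EiJ, and -0.085 for Gsr and 0.11 for Hmox1 in C57BL/6J. The deposited values are variance-stabilised, with a lowest value of 7.67, so these effects are on another scale than edgeR's log2 fold changes. The cause of these changes was not tested. No alternative called any of the 38 genes for diet. With 3 or 4 libraries per group the SE of a diet difference was about 0.07, and lower levels, as in Gpx7, were less precise.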

Other observations

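In NZO/HlLtJ 10% fat replicate 4, 21 of the 38 genes had the highest level of their group, among them Txn1 at 25.3 CPM, Gpx1 at 32.7 CPM and Gstm1 at 665 CPM. That library also had the highest summed Leydig cell markers of all 23, 1637 CPM, and the lowest elongating spermatid markers, 11640 CPM. In CAST/EiJ 44% fat replicate 4, 22 of the 38 genes had the lowest level of their group, and in NZO/HlLtJ 10% fat replicate 2, 21 did. These counts were not made over all genes, and what lies behind them was not tested.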
